A study of Danio rerio with 6 samples.

Results

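Adaptor protein complexes and vesicle coats were followed in iridophores, the pigment cells of zebrafish that build light-reflecting purine crystals inside lysosome-related organelles. Members were chosen by gene symbol alone: subunits of the adaptor complexes AP-1 to AP-5, clathrin chains, COPI and COPII coat genes with the small GTPase Sar1, Arf GTPases, and the TMED (p24) cargo receptors. The symbol rule found 61 of the 11016 rows of the count table. They comprised 9 AP-1, 5 AP-2, 5 AP-3, 4 AP-4, 3 AP-5, 2 clathrin, 8 COPI, 10 COPII, 7 Arf and 8 TMED rows. One COPII row, sec23ip, codes for a protein that binds Sec23 and is not itself a coat subunit. The rows ap1g2_1, copz2_1 and arf5_1 carry a suffix on the symbol, and how reads were shared out to such rows is not given in the sources used here. Some genes of these families had no row under these symbols and were not analysed here. Among them were the AP-3 delta subunit, the beta subunits of COPI, clathrin heavy chain a, clathrin light chain a, Sec13, Sec31a and tmed10.

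Both groups came from wild-type larvae carrying the Tg(pnp4a:PALM-mCherry) transgene, in which the promoter of pnp4a, a purine nucleoside phosphorylase gene, drives a membrane-anchored red fluorescent protein, at 5 days post fertilization. Whole larvae were dissociated in TrypLE at 37 degrees with shaking, stained with Hoechst and sorted, so dissociation was shared by both groups. The iridophore group held 3 libraries of sorted fluorescent cells and the control group 3 libraries of a general cell population, with about 20000 cells a library. The labels do not say whether fluorescent cells were kept out of the control, or how many larvae were pooled. RNA was counted by bulk MARS-seq, which reads the 3′ ends of polyadenylated transcripts.

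Coats and adaptors shape transport vesicles and choose their cargo. COPII carries new proteins out of the endoplasmic reticulum (ER), COPI returns proteins from the Golgi, AP-1 works with clathrin between the trans-Golgi network and endosomes, AP-2 works with clathrin at the plasma membrane, and AP-3 sorts cargo from endosomes to lysosomes and lysosome-related organelles. Loss of the AP-3 beta subunit lightens pigment in mice and causes a form of Hermansky-Pudlak syndrome in humans. Arf GTPases recruit COPI, AP-1, AP-3 and AP-4 to membranes, and Sar1 recruits COPII.

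Iridophore libraries held 616439 to 1686552 counts and control libraries 1612637 to 3282480. Coat and adaptor rows took 0.24% to 0.296% of the counts in iridophores and 0.328% to 0.382% in control cells, without overlap. A count of 3 stood for 1.69 to 5.5 CPM (the count scaled to library size) in iridophores and 0.897 to 1.79 CPM in control libraries, a limit that covers counting error only. Of 8 tested iridophore markers 8 were higher, with a summed level of 2795 to 5376 CPM in iridophores and 23.6 to 68.7 CPM in control cells. These include pnp4a, at 1801 to 2710 CPM in iridophores and 9.27 to 20.5 CPM in control cells. Its promoter drives the reporter used for sorting, so its rise is not independent of the sort. Other cell types were unevenly represented. Summed skeletal muscle markers stood at 14720 to 17840 CPM in iridophores and 7255 to 8181 CPM in control cells, with 8 of 8 tested genes higher. Erythrocyte markers stood at 609.1 to 707.1 CPM in iridophores and 1281 to 1802 CPM in control cells, and digestive organ markers at 4900 to 6349 CPM in iridophores and 7374 to 19590 CPM in control libraries. Their part in the differences below was not tested. In bulk libraries, fewer cells of a type and less RNA per cell cannot be told apart.

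The adaptor complexes moved in different directions (the plot of log2 fold changes by complex). In iridophores 3 of the 4 tested AP-3 genes, ap3b1, ap3m2 and ap3s1, rose, all 6 tested AP-1 genes had negative log2 fold changes with 4 called lower, and AP-2 held both rises and a fall. The AP-3 gene ap3m2 passed the filter on low counts only through its iridophore libraries. COPII rows were called lower in 4 of 8, among them sec23ip, which is not a coat subunit. COPI genes were called lower in 2 of 8, and no row of either set was called higher. Over all members, 47 of 61 passed the filter on low counts, and of these 7 were higher and 12 lower at an adjusted p under 0.05 in edgeR's quasi-likelihood test with Benjamini-Hochberg adjustment over 6849 genes. That is 14.9% higher and 25.5% lower of the members, against 22.1% higher, 17.8% lower and 39.9% called in either direction among all tested genes. The median log2 fold change was -0.45 over the tested members and 0.01 over all tested genes. At an unadjusted p under 0.05 in the same test, 7 of the 47 members were higher and 17 lower, against 1790 higher and 1545 lower of the 6849 genes. All 3 iridophore libraries lay above all 3 control libraries for 9 members and below them for 17, where the shares over all genes were 27% above and 24.9% below. Without control replicate 3, or without iridophore replicate 3, 4 members were higher, where 1359 of 7477 and 1248 of 7204 tested genes were higher. Of the 19 called members, 9 kept their call in every alternative fit tried: ap1b1, ap1m2, ap1s3a, ap2m1b, ap3b1, ap3m2, sec23b, sec24a and arf6b.

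**Figure D1:**
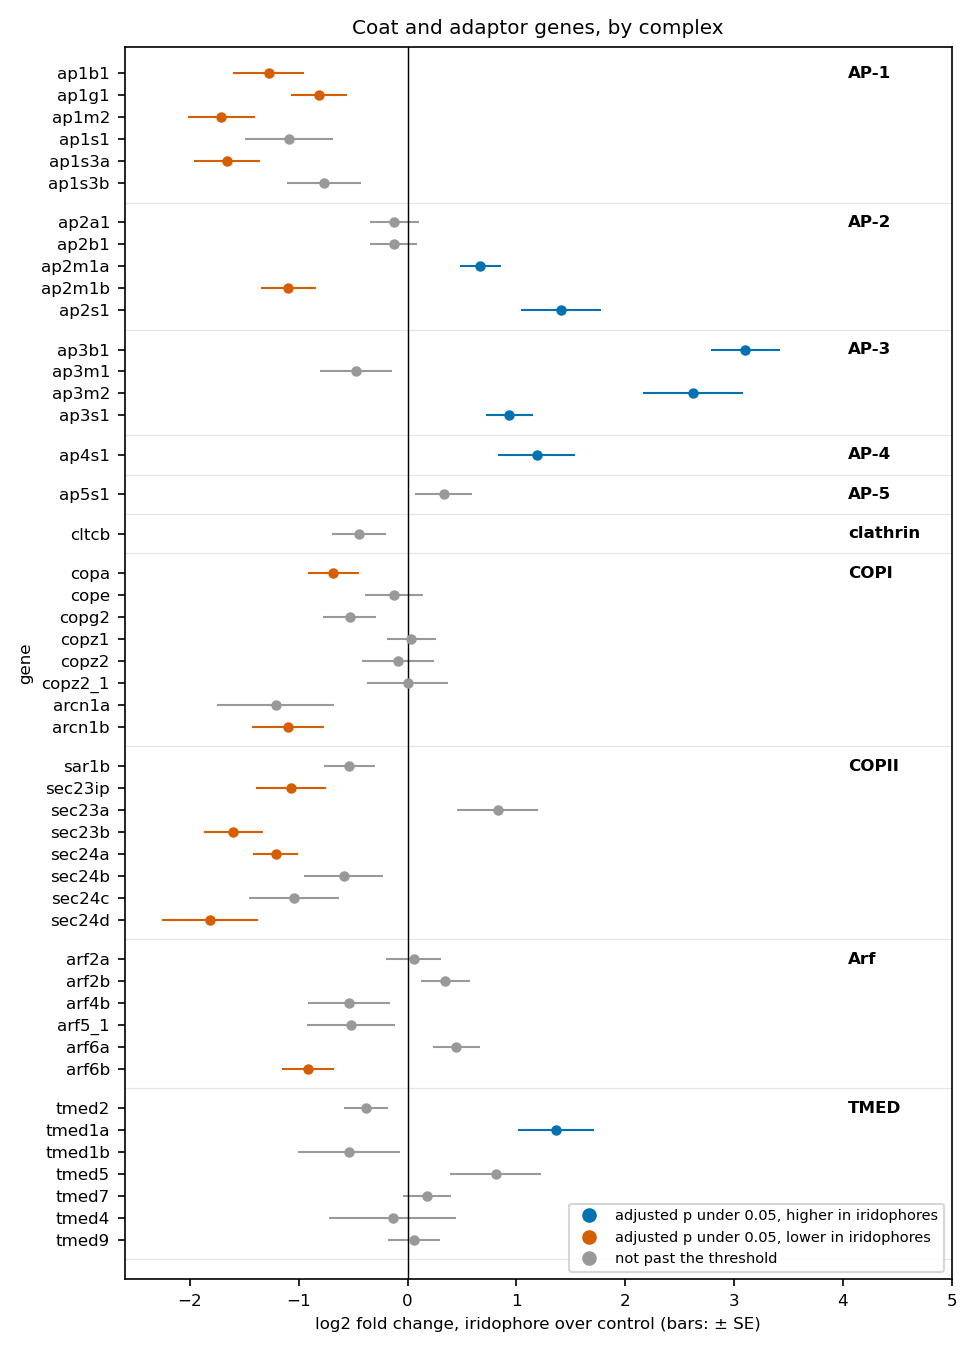
Log2 fold change (iridophore over control) of the 47 tested members with its standard error, grouped by complex; colours mark the edgeR call. AP-3 points reach 3.10, every AP-1 point lies under 0, and the COPII points lie between -1.81 and 0.83.

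AP-3 held the largest rises. The beta subunit gene ap3b1, which codes for the large subunit affected in the pigment disorders named above, had 75.1, 116.2 and 90.5 CPM in iridophore replicates 1, 2 and 3, against 13.5, 5.95 and 12.3 CPM in control replicates 1, 2 and 3. The lowest iridophore library was thus well above the highest control library. Its log2 fold change was 3.10 (SE 0.32 and edgeR adjusted p = 6.275e-05), and the alternatives ranged between 2.74 and 3.42. The symbol ap3b1 matched an Ensembl symbol and no RefSeq symbol.

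The medium subunits of adaptors read tyrosine-based sorting signals in cargo tails, and the 2 AP-3 genes for it differed in direction. The gene ap3m2 had 9.16, 24.7 and 25.3 CPM in iridophores, against 4.49, 1.79 and 3.08 CPM in control cells. Iridophore replicate 1 was the lowest of its group, at 5 counts, and still above every control library. Only the iridophore libraries carried ap3m2 past the filter on low counts, so its being tested is not independent of its rise. In the fit without that filter it was still called. The log2 fold change was 2.62 (SE 0.46 and edgeR adjusted p = 0.00161), with a range of 2.28 to 3.27 over the alternatives. Its paralog ap3m1 had 9.16, 11.6 and 8.998 CPM in iridophores and 15.3, 10.7 and 14.4 CPM in control cells. These ranges overlapped, and the log2 fold change of -0.48 (SE 0.33) was not called (edgeR adjusted p = 0.280). The log2 ratio of ap3m1 to ap3m2 was -0.80 ± 0.71 in iridophores and 1.80 ± 0.24 in control cells (mean ± SD, n = 3 each), with 0 in iridophore replicate 1 and 1.53 in the lowest control library.

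Small subunits hold the adaptor core together and, with a large subunit, bind dileucine-type signals. Levels of ap3s1 were 95.3, 90.02 and 81.5 CPM in iridophores and 50.5, 49.4 and 38.5 CPM in control cells, 2 tight groups without overlap. Its log2 fold change was 0.94 (SE 0.21 and edgeR adjusted p = 0.00675), and without control replicate 3 it was 0.77 and no longer called (adjusted p = 0.0560). The paralog ap3s2 did not pass the filter. It had 20.3 CPM in iridophore replicate 2 and 0.595 to 5.06 CPM in the other 5 libraries. Markers of other pigment cells went both ways, and those of macrophages had higher means in iridophores. Xanthophore markers summed to 281.8 to 447.2 CPM in iridophores and 171.4 to 220.8 CPM in control cells, with 2 of 3 tested genes higher and 1 lower. Summed melanophore markers overlapped, at 102.6 to 201.8 CPM in iridophores and 71.8 to 310.2 CPM in control cells. Of 5 tested melanophore genes, dct was called higher (log2 fold change 1.37, edgeR adjusted p = 0.0359) and none lower. The 3 of 6 listed macrophage markers that had a row summed to 20.2, 58.1 and 55.7 CPM in iridophores and to 1.496, 5.36 and 6.67 CPM in control cells. The only one tested, coro1a, was called higher (edgeR adjusted p = 0.00049), with 0 counts in 2 of the 3 control libraries. The part of such cells in the AP-3 values was not tested.

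AP-1 had negative log2 fold changes in all 6 tested rows, and 4 of them were called lower. Replicate 1 of both groups has another ending in its library name than replicates 2 and 3; the labels do not say what the ending stands for, and fits with it as a term are given where they change a call. The epithelial form of the AP-1 medium subunit in mammals is coded by the gene corresponding to ap1m2, and the zebrafish gene had 113.6, 49.4 and 66.4 CPM in iridophores against 304.5, 228.6 and 206.6 CPM in control cells. The highest iridophore library, replicate 1, lay well under the lowest control library. The log2 fold change was -1.71 (SE 0.31 and edgeR adjusted p = 0.00187). The ubiquitous form of that subunit, ap1m1, did not pass the filter, with 1.83, 4.36 and 10.12 CPM in iridophores and 0, 4.17 and 2.56 CPM in control cells. Summed epidermal markers stood at 470.8 to 953.9 CPM in iridophores and 414 to 594.1 CPM in control cells, with 1 of 4 tested markers higher and 0 lower. Epidermal cells are not the only epithelial cells. Summed digestive organ markers stood at 4900 to 6349 CPM in iridophores and 7374 to 19590 CPM in control cells, with 3 of 4 tested genes lower. The part of epithelial cells in the ap1m2 values was not tested.

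Of the AP-1 small subunits, ap1s3a fell most. It had 117.2, 53.7 and 53.4 CPM in iridophores and 234.2, 234.5 and 222.5 CPM in control cells, giving a log2 fold change of -1.66 (SE 0.31 and edgeR adjusted p = 0.0021). Control libraries were nearly equal, whereas iridophore replicate 1 stood well above the other 2 iridophore libraries. The related ap1s1 had 3.66, 18.9 and 16.3 CPM in iridophores, the first of them from 2 counts, and 35.3, 22.02 and 31.3 CPM in control cells. The groups did not overlap, but the log2 fold change of -1.09 missed the threshold (SE 0.40 and edgeR adjusted p = 0.0541). It passed in 6 of 15 alternatives, with adjusted p between 0.0318 and 0.0495, among them the fit with the library-name ending as a term (0.0321), and replicates 2 and 3 alone gave -0.66 (0.126). For ap1s3b the levels were 54.9, 23.2 and 25.9 CPM in iridophores and 71.8, 49.4 and 46.7 CPM in control cells. Iridophore replicate 1 overlapped the control, the log2 fold change was -0.77 (SE 0.34 and edgeR adjusted p = 0.0990), and without that library it was -1.201 (adjusted p = 0.00819). With the library-name ending in the model it was -0.75 and called (adjusted p = 0.0138), so that all 6 tested AP-1 genes were lower in that fit.

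Large AP-1 subunits followed the same direction. The beta gene ap1b1, whose product links the adaptor to clathrin, had 16.5, 8.71 and 20.2 CPM in iridophores and 31.1, 42.3 and 43.6 CPM in control cells, giving a log2 fold change of -1.28 (SE 0.32 and edgeR adjusted p = 0.0113). The gamma gene ap1g1 had 34.8, 23.2 and 23.6 CPM in iridophores and 44.9, 53.0 and 42.04 CPM in control cells, giving a log2 fold change of -0.81 (SE 0.26 and edgeR adjusted p = 0.0295). Neither overlapped between the groups. The ap1g1 call was lost without control replicate 2, iridophore replicate 2 or iridophore replicate 3 (adjusted p = 0.0734, 0.0802 and 0.104). Both rows of the second gamma gene, ap1g2 and ap1g2_1, failed the filter, at 0 to 5.81 CPM. Summed over its 9 rows, AP-1 stood at 253 ± 81.2 CPM in iridophores and 656 ± 66.5 CPM in control cells. Its most abundant rows were ap1m2, with means of 76.4 CPM in iridophores and 246.6 CPM in control cells, and ap1s3a, with 74.8 and 230.4 CPM. AP-3 over its 5 rows stood at 222 ± 36.4 CPM in iridophores and 75.8 ± 9.22 CPM in control cells (mean ± SD, n = 3 each). Neither sum overlapped between the groups.

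**Figure D2:**
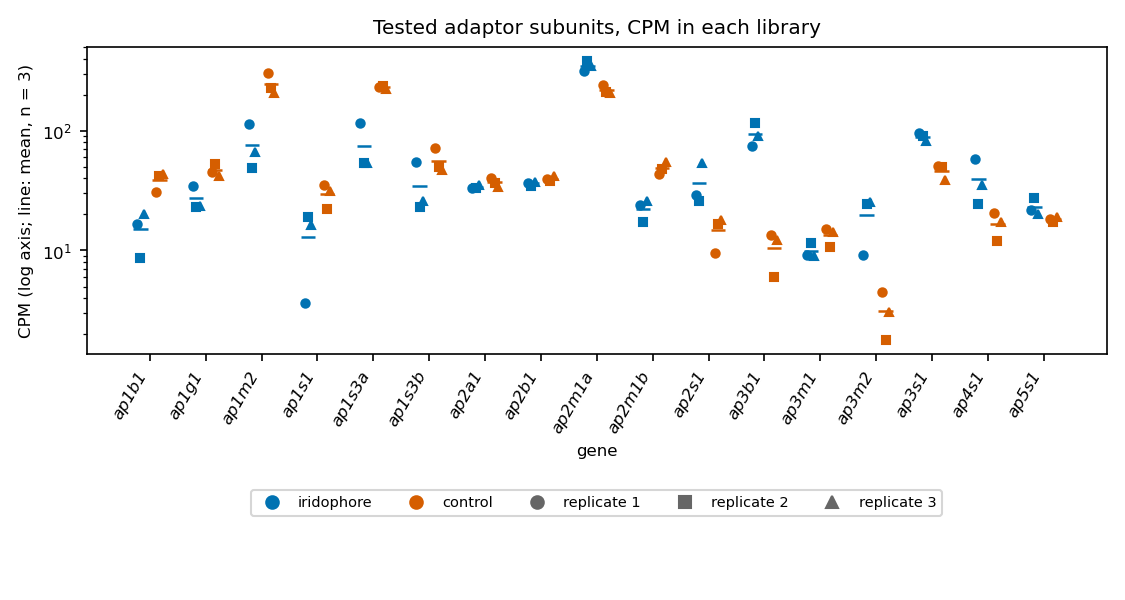
CPM on a log axis of each tested adaptor subunit in every library, with iridophores left of the control; lines are means of 3 libraries and marker shapes give the replicate number. AP-1 means sit lower in iridophores, ap3b1 and ap3m2 sit higher, and ap2a1 and ap2b1 lie level.

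AP-2, the adaptor of endocytosis, was split. Summed over its 5 rows, of which ap2m1a was the most abundant, it stood at 479 ± 35.5 CPM in iridophores. The control sum was 360 ± 11.8 CPM (mean ± SD, n = 3 each), without overlap. Its large subunits were not called: ap2a1 ranged over 33.0 to 35.4 CPM in iridophores and 33.8 to 40.4 CPM in control cells (log2 fold change -0.12, SE 0.22, edgeR adjusted p = 0.695), and ap2b1, at 34.8 to 37.7 CPM in iridophores and 38.1 to 41.5 CPM in control cells, gave -0.12 (SE 0.22, adjusted p = 0.675). The small subunit gene ap2s1 had 29.3, 26.1 and 54.0 CPM in iridophores against 9.57, 16.7 and 17.9 CPM in control cells. Iridophore replicate 3 was the highest, and without it the log2 fold change of 1.41 (SE 0.37 and edgeR adjusted p = 0.0125) became 0.90 and was not called (adjusted p = 0.107). The medium subunit paralogs moved apart: ap2m1a had 315.1, 383.3 and 349.8 CPM in iridophores and 239.9, 210.7 and 208.2 CPM in control cells, whereas ap2m1b had 23.8, 17.4 and 25.9 CPM in iridophores and 43.7, 48.2 and 54.9 CPM in control cells. Neither gene overlapped between the groups. The log2 fold changes were 0.67 for ap2m1a (SE 0.19 and edgeR adjusted p = 0.0179) and -1.09 for ap2m1b (SE 0.25, adjusted p = 0.00703). That of ap2m1a was no longer called in DESeq2 (adjusted p = 0.0619) or without control replicate 2, control replicate 3 or iridophore replicate 2 (adjusted p = 0.138, 0.115 and 0.0566).

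AP-4 and AP-5, which do not use clathrin, passed the filter with 1 small subunit gene each, ap4s1 and ap5s1, and their other 5 rows did not pass. The gene ap4s1 had 58.6, 24.7 and 35.4 CPM in iridophores and 20.6, 11.9 and 17.4 CPM in control cells. The groups were separate, with a log2 fold change of 1.19 (SE 0.35 and edgeR adjusted p = 0.0224), but the call was lost without control replicate 2 (adjusted p = 0.108), control replicate 3 (0.0642), iridophore replicate 1 (0.0578) or iridophore replicate 3 (0.0588). In the RefSeq table ap4s1 overlaps strn3, as ap1s3a overlaps dhrs12la, sec23b overlaps ccdc85al, and ap2b1 overlaps lrwd1. There sec23a overlaps clec14a, sstr1a and ttc6, sar1b overlaps ddx46, and sec24a overlaps ddx46, camlg, zgc:77058 and macroh2a1. Overlaps with unnamed loci or microRNAs, and those of untested members, are not listed. With no strand setting given, reads of such neighbours cannot be told apart. The other AP-4 genes ap4b1, ap4e1 and ap4m1 had at most 12.8 CPM in any library. In AP-5, which acts at late endosomes, ap5s1 had 22.0, 27.6 and 20.2 CPM in iridophores and 18.2, 17.3 and 19.0 CPM in control cells, giving a log2 fold change of 0.33 that was not called (SE 0.26 and edgeR adjusted p = 0.347). The rows ap5m1 and ap5z1 failed the filter, at 1.19 to 7.87 CPM. The 3 AP-5 rows summed to 33.0, 36.3 and 35.4 CPM in iridophores and 24.8, 22.6 and 27.2 CPM in control cells, without overlap. Summed levels of the AP-4, clathrin, COPI, Arf and TMED rows overlapped between the groups. Among single tested genes, 27% lay wholly above the control and 24.9% wholly below, so separate sums are not particular to these complexes.

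Clathrin forms the outer cage on AP-1 and AP-2 vesicles. Its heavy chain gene cltcb had 40.3, 29.04 and 28.7 CPM in iridophores and 49.9, 42.9 and 37.4 CPM in control cells. The ranges overlapped, and the log2 fold change of -0.45 was not called in any fit (SE 0.25 and edgeR adjusted p = 0.184). The only light chain gene with a row, cltb, had 0 counts in all 3 iridophore libraries and 6, 2 and 1 counts in control replicates 1, 2 and 3. At these depths a difference was not detectable. Light chain a had no row, so the light chain level as a whole is not known here.

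COPII held 4 rows that fell, sec23b, sec24a, sec24d and the accessory gene sec23ip, and 7 of its 8 tested rows had negative log2 fold changes. The share lower was 50%, against 17.8% among all tested genes. The inner-coat gene sec23b, whose product activates the GTPase of Sar1, had 73.3, 34.8 and 60.7 CPM in iridophores and 188.1, 160.7 and 162.5 CPM in control cells. The groups were far apart, with a log2 fold change of -1.6 (SE 0.27 and edgeR adjusted p = 0.00131). Its paralog sec23a, needed for collagen export in skeletal tissue of fish and humans, went the other way in 2 of 3 libraries, with 25.6, 8.71 and 24.7 CPM in iridophores and 11.96, 10.12 and 11.8 CPM in control cells. Iridophore replicate 2, with 6 counts, lay under the control, and the log2 fold change of 0.83 was not called (SE 0.37 and edgeR adjusted p = 0.104). Without that library it was 1.13 (adjusted p = 0.0184). The log2 ratio of sec23a to sec23b was -1.53 ± 0.31 in iridophores and -3.78 ± 0.11 in control cells (mean ± SD, n = 3 each).

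Sec24 proteins bind the cargo of COPII vesicles, and all 4 paralogs had negative log2 fold changes. For sec24a the levels were 91.6, 91.5 and 74.2 CPM in iridophores and 222.5, 183.9 and 184.1 CPM in control cells, giving a log2 fold change of -1.21 (SE 0.21 and edgeR adjusted p = 0.00145). For sec24d they were 10.99, 2.90 and 5.62 CPM in iridophores and 14.96, 26.2 and 24.6 CPM in control cells, giving a log2 fold change of -1.81 (SE 0.44 and edgeR adjusted p = 0.00915). Both genes were separate between the groups, though sec24d rested on 2 to 10 counts in an iridophore library and lost its call without iridophore replicate 3 (-1.74, adjusted p = 0.0523). Only the control libraries carried sec24d past the filter on low counts. The levels of sec24c were 3.66, 4.36 and 8.44 CPM in iridophores and 16.2, 12.5 and 9.74 CPM in control cells, also without overlap (log2 fold change -1.04, SE 0.41, edgeR adjusted p = 0.0706, and -1.70 with adjusted p = 0.0444 without iridophore replicate 3). Those of sec24b were 22.0, 7.26 and 23.1 CPM in iridophores and 29.3, 29.8 and 22.6 CPM in control cells, where iridophore replicate 3 reached into the control range (-0.58, SE 0.36, adjusted p = 0.229). Without iridophore replicate 2 the sec24b value was -0.27 and without iridophore replicate 3 it was -0.99, neither of them called.

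The remaining COPII rows were the Sar1 GTPase genes, the accessory gene sec23ip and the outer-coat gene sec31b. The Sar1 gene sar1b, the most abundant of them, had 282.1, 174.2 and 185.6 CPM in iridophores and 346.1, 297 and 281 CPM in control cells. Iridophore replicate 1 passed the lowest control library by a narrow margin, and the log2 fold change of -0.53 was not called (SE 0.23 and edgeR adjusted p = 0.0938); without that library it was -0.79 and called (adjusted p = 0.00913), and with the library-name ending as a term it was -0.55 and called (0.0193). The row sec23ip had 16.5, 7.26 and 17.4 CPM in iridophores and 30.8, 28.6 and 30.8 CPM in control cells, giving a log2 fold change of -1.07 (SE 0.32 and edgeR adjusted p = 0.0230) whose call was lost without iridophore replicate 2 (adjusted p = 0.0522). The rows sar1aa and sec31b did not pass the filter, at 0 to 6.55 CPM, so no outer-coat gene of COPII was tested. Beside these falls, digestive organ markers, which represent secretory cells, were lower in iridophores, with 3 of 4 tested genes called; try, a trypsin gene, had 2141 to 3561 CPM in iridophores and 2454 to 10360 CPM in control cells. The summed COPII level was 529.4, 336.8 and 403.2 CPM in iridophores and 865.6, 757.2 and 736.7 CPM in control cells, without overlap. The part of digestive cells in the COPII values was not tested.

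COPI held 2 genes that fell, copa and arcn1b. They are 25% of its 8 tested rows, against 17.8% lower among all tested genes. The alpha subunit gene copa had 69.6, 58.1 and 62.4 CPM in iridophores and 121.1, 78.6 and 103.6 CPM in control cells, without overlap. The log2 fold change was -0.68 (SE 0.23 and edgeR adjusted p = 0.0401), and the call was lost without control replicate 1 (adjusted p = 0.115), control replicate 3 (0.0909), iridophore replicate 2 (0.107) or iridophore replicate 3 (0.0927). Of the delta subunit genes, arcn1b had 7.33, 13.1 and 19.1 CPM in iridophores and 26.02, 34.5 and 33.3 CPM in control cells, and arcn1a had 0, 13.1 and 6.75 CPM in iridophores and 14.1, 19.1 and 15.9 CPM in control cells. Both lay wholly under the control. For arcn1b the log2 fold change was -1.10 (SE 0.33 and edgeR adjusted p = 0.0245), lost without control replicate 3 (-1.12, adjusted p = 0.0543) or iridophore replicate 2 (-1.05, adjusted p = 0.0696), and for arcn1a it was -1.21 (SE 0.54, adjusted p = 0.0994). With the library-name ending as a term arcn1a was at -1.34 and called (adjusted p = 0.0369).

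The other 5 COPI rows overlapped between the groups. The zeta subunit gene copz1 had 120.9, 97.3 and 83.8 CPM in iridophores and 111, 81.5 and 98.4 CPM in control cells, giving a log2 fold change of 0.04 (SE 0.23 and edgeR adjusted p = 0.920). The gamma subunit gene copg2 had 82.4, 58.1 and 48.4 CPM in iridophores and 93.6, 94.7 and 79.0 CPM in control cells (log2 fold change -0.53, SE 0.25, edgeR adjusted p = 0.111), and it passed the threshold without iridophore replicate 1 (adjusted p = 0.0183) and with the library-name ending as a term (0.0496). The epsilon subunit gene cope was among the most abundant, with 196, 110.3 and 126 CPM in iridophores and 190.8, 128 and 148.2 CPM in control cells. The rows copz2 and copz2_1 had 5.81 to 11.8 CPM in every library.

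**Figure D3:**
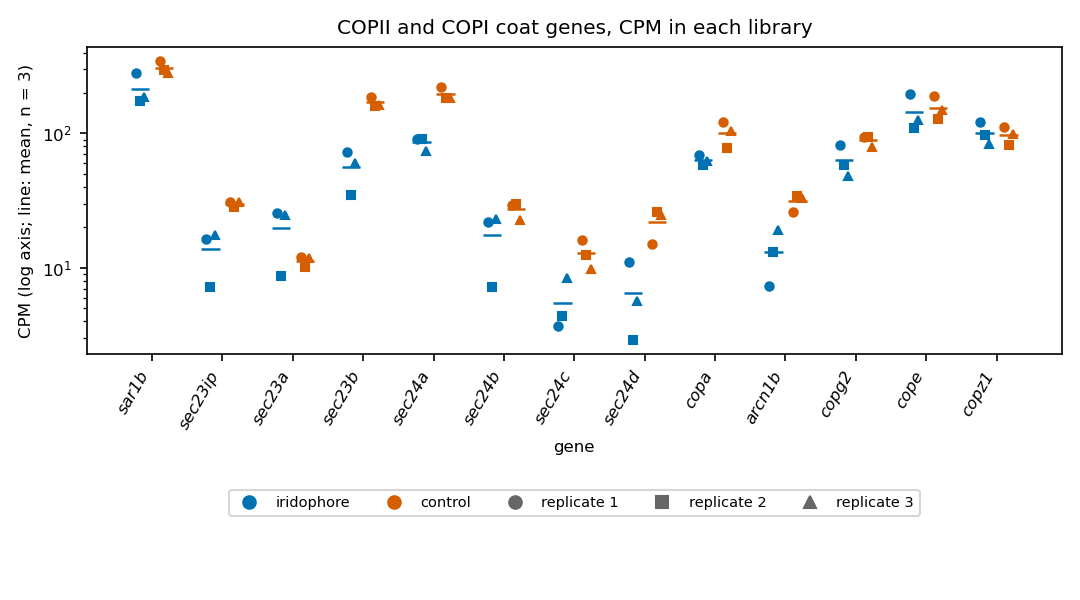
CPM on a log axis of the tested COPII genes and of 5 COPI genes in every library, with iridophores left of the control; lines are means of 3 libraries and marker shapes give the replicate number. The rows sec23b, sec24a, sec24d and sec23ip sit lower in iridophores, sec23a sits higher in 2 of 3 libraries, and cope and copz1 overlap.

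Arf GTPases were mostly not called. Of 6 tested rows, arf6b was called lower and none higher. The share lower was 16.7%, near the 17.8% among all tested genes. Arf6 acts at the plasma membrane and on recycling endosomes, and its zebrafish paralogs had different values. The gene arf6b had 22.0, 21.8 and 30.4 CPM in iridophores and 51.4, 44.6 and 48.2 CPM in control cells, separate groups with a log2 fold change of -0.91 (SE 0.24 and edgeR adjusted p = 0.0139). The gene arf6a had 73.3, 56.6 and 64.1 CPM in iridophores and 52.3, 45.8 and 43.07 CPM in control cells. These groups were also separate, in the other direction, but the log2 fold change of 0.45 was not called (SE 0.21 and edgeR adjusted p = 0.122). The log2 ratio of arf6a to arf6b was 1.35 ± 0.32 in iridophores and -0.03 ± 0.11 in control cells (mean ± SD, n = 3 each). The Golgi-acting Arf genes arf2b, arf2a, arf4b and arf5_1 overlapped between the groups, the most abundant being arf2b, at 222.1 to 333.4 CPM in iridophores and 188.2 to 245.9 CPM in control cells. The log2 fold changes of arf4b (-0.54, SE 0.38, edgeR adjusted p = 0.287) and arf5_1 (-0.52, SE 0.41, adjusted p = 0.342) were negative. Without iridophore replicate 1 arf4b was called lower (-1.04), as it was with replicates 2 and 3 alone. The row arf1 failed the filter, at 0 to 3.66 CPM.

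TMED receptors, which cycle between ER and Golgi as hetero-oligomers of several subfamilies, held a single call. The share higher was 14.3% of 7 tested rows, against 22.1% among all tested genes. The gamma-subfamily gene tmed1a had 34.8, 61.0 and 54.0 CPM in iridophores and 27.8, 18.4 and 11.3 CPM in control cells. The groups did not overlap, and the log2 fold change was 1.37 (SE 0.35 and edgeR adjusted p = 0.0119). Its call was lost narrowly without iridophore replicate 2 (adjusted p = 0.0504) or iridophore replicate 3 (0.0518). The paralog tmed1b had 7.33, 1.45 and 5.62 CPM in iridophores and 7.48, 7.74 and 6.15 CPM in control cells (log2 fold change -0.54, SE 0.47, edgeR adjusted p = 0.394), with 1 count in iridophore replicate 2. The tmed1b value was -0.22 without that library and -0.82 without iridophore replicate 3.

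Other TMED rows overlapped or differed little. The gene tmed5 had 5.49, 23.2 and 20.8 CPM in iridophores and 9.87, 7.74 and 12.3 CPM in control cells (log2 fold change 0.81, SE 0.42, edgeR adjusted p = 0.153), and without the low iridophore replicate 1 it was called (1.096, adjusted p = 0.0235). The abundant tmed7 had 199.7, 175.7 and 129.3 CPM in iridophores and 159.7, 149.4 and 133.3 CPM in control cells (0.18, SE 0.22, adjusted p = 0.553). The beta-subfamily gene tmed2 had 113.6, 137.9 and 142.3 CPM in iridophores and 153.7, 191.1 and 171.2 CPM in control cells, separate but not called (adjusted p = 0.160). The alpha-subfamily genes tmed4 and tmed9 overlapped between the groups, and tmed8 failed the filter.

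The balance of paralogs was compared pair by pair within subunit families, over 26 pairs whose members both passed the filter. The log2 ratio did not overlap between the groups for 8 pairs (30.8%). Of all tested genes taken singly, 27% lay wholly above the control and 24.9% wholly below. Counting either direction, as for the pairs, single genes were thus separate more often than the ratios. Some pairs share a gene, and the share among pairs of other genes was not computed. Besides the ratios of sec23a to sec23b, arf6a to arf6b and ap3m1 to ap3m2 given above, that of ap2m1a to ap2m1b was 3.91 ± 0.40 in iridophores and 2.14 ± 0.26 in control cells, and that of ap1s3a to ap1s3b was 1.09 ± 0.08 in iridophores and 2.04 ± 0.31 in control cells (mean ± SD, n = 3 each). The ratio of tmed1a to tmed1b was 3.21 ± 1.25 in iridophores and 1.21 ± 0.49 in control cells, with the wide iridophore spread resting on 1 to 10 counts of tmed1b a library. The last 2 pairs were tmed1b to tmed7, with a difference of -0.80, and sec24b to sec24d, with a difference of 0.94 (iridophore minus control). Each of the 8 had an exact two-sided permutation p = 0.1, the smallest that 3 libraries against 3 allow, or 0.325 after Benjamini-Hochberg adjustment over the 26 pairs, so none could pass. How reads shared by similar paralogs were counted is not given in the sources used here, so the ratios are less certain than their spread shows.

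**Figure D4:**
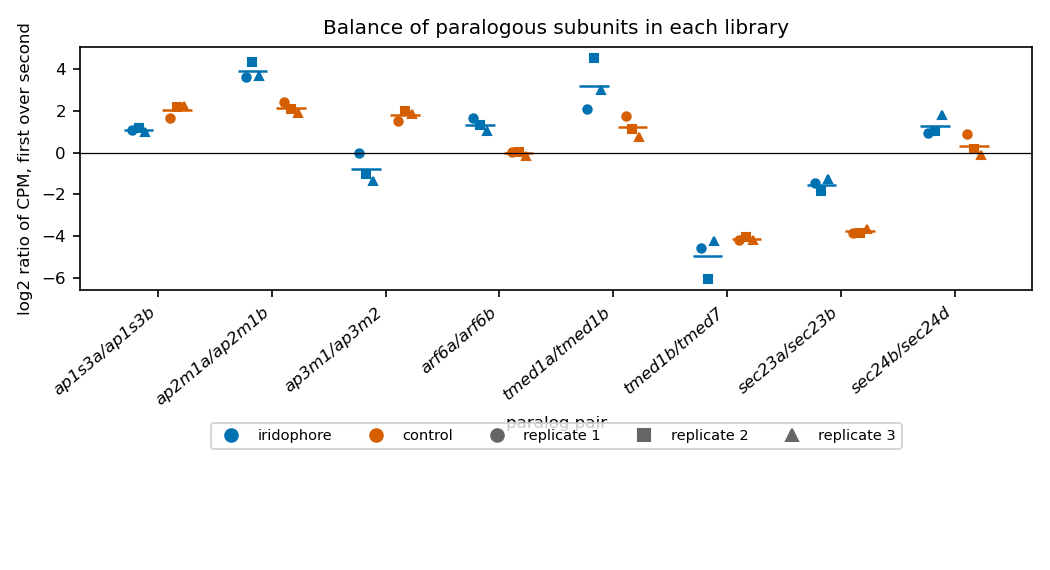
Log2 ratio of CPM of the first to the second paralog in every library, for the 8 pairs whose ratios did not overlap between groups, with iridophores left of the control; lines are means of 3 libraries. The ratio of ap3m1 to ap3m2 is at or under 0 in all iridophore libraries and at or above 1.53 in all control libraries.

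Genes that regulate these coats or travel with them were read from a separate list of 154 symbols, of which 90 had a row and 59 passed the filter. Of these, 10 were higher and 10 lower, with a median log2 fold change of -0.01, where 22.1% of all tested genes were called higher and 17.8% lower. Partners of clathrin and AP complexes gave 4 higher and 2 lower of 18, Arf regulators 1 higher and 2 lower of 13, and ER export and retrieval genes 5 higher and 6 lower of 28.

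Among AP partners, pi4k2a codes for a lipid kinase that makes phosphatidylinositol 4-phosphate on Golgi and endosomal membranes and, in mammalian cells, binds AP-3. It had 60.5, 62.4 and 58.5 CPM in iridophores and 5.38, 8.93 and 10.8 CPM in control cells, giving a log2 fold change of 2.89 (SE 0.30 and edgeR adjusted p = 7e-05). The 3 iridophore libraries were nearly equal. The gene spg11, whose product associates with AP-5 in mammals, had 14.7, 17.4 and 18.6 CPM in iridophores and 5.98, 5.36 and 6.67 CPM in control cells (1.51, SE 0.32, adjusted p = 0.00443). Endocytic proteins moved both ways. The AP-2 activator fcho1 had 9.16, 7.26 and 11.8 CPM in iridophores and 0.299, 2.38 and 0.513 CPM in control cells, with a log2 fold change of 3.38 (SE 0.63 and edgeR adjusted p = 0.0023). Leaving out control replicate 2 gave 4.33 and leaving out control replicate 1 gave 2.71. Only the iridophore libraries carried fcho1 past the filter on low counts. The epsins, membrane-bending clathrin adaptors, diverged: epn2 had 33.0, 27.6 and 23.6 CPM in iridophores and 4.49, 8.33 and 8.20 CPM in control cells (2.01, SE 0.34, adjusted p = 0.00136), and epn1 had 20.2, 10.16 and 34.9 CPM in iridophores and 90.6, 83.9 and 98.4 CPM in control cells (-1.94, SE 0.34, adjusted p = 0.0017). Without iridophore replicate 3 the value of epn1 was -2.65.

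For the Arf cycle, the exchange factor gene cyth1b had 58.6, 56.6 and 81.0 CPM in iridophores and 5.98, 15.5 and 12.3 CPM in control cells, giving a log2 fold change of 2.62 (SE 0.35 and edgeR adjusted p = 0.000346). The GTPase-activating protein gene asap2b had 7.33, 5.81 and 7.31 CPM in iridophores and 15.6, 17.3 and 25.6 CPM in control cells (-1.47, SE 0.36, adjusted p = 0.00946). Neither overlapped between the groups.

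In the list of ER export and retrieval genes, the cargo receptor lman1, a COPII passenger, fell. It had 16.5, 17.4 and 28.1 CPM in iridophores and 47.3, 67.3 and 66.7 CPM in control cells, giving a log2 fold change of -1.45 (SE 0.29 and edgeR adjusted p = 0.00309). The receptor gene surf4l had 9.16, 2.90 and 6.19 CPM in iridophores and 14.7, 23.8 and 13.3 CPM in control cells (-1.501, SE 0.43, adjusted p = 0.0205), lost without control replicate 2 (adjusted p = 0.0578), iridophore replicate 2 (0.0638) or iridophore replicate 3 (0.0701). The gene preb, outside the 12 largest changes and named after its values were seen, codes for the exchange factor that loads Sar1. It had 42.1, 23.2 and 23.1 CPM in iridophores and 67.9, 68.5 and 72.3 CPM in control cells (-1.30, SE 0.27, edgeR adjusted p = 0.00405). Also outside the 12, with larger changes than preb, lman2la was higher (1.33, edgeR adjusted p = 0.0147) and the Arf regulator arfgap3 lower (-1.32, adjusted p = 0.00497).

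Other genes of the ER export and retrieval list went up. The Golgi SNARE gene gosr2 had 40.3, 45.01 and 29.8 CPM in iridophores and 13.5, 14.9 and 15.9 CPM in control cells, giving a log2 fold change of 1.35 (SE 0.27 and edgeR adjusted p = 0.00339). The gene ergic2 had 12.8, 8.71 and 9.56 CPM in iridophores and 4.49, 2.38 and 3.59 CPM in control cells (1.45, SE 0.41, adjusted p = 0.0176), a call lost in DESeq2 (adjusted p = 0.104) and without control replicate 2 (0.0982), control replicate 3 (0.0732), iridophore replicate 1 (0.0514) or iridophore replicate 3 (0.0761). The gene sec22a had 9.16, 8.71 and 7.87 CPM in iridophores and 0, 1 and 1 counts in control cells, at or under the floor of 3 counts a library. The iridophore mean was 6.09 times the mean CPM of that control floor, with edgeR adjusted p = 0.000671. That figure leaves out counting error in iridophores, where the counts were 5, 6 and 14, so it is not a strict lower bound. Without iridophore replicate 3 sec22a was not tested. In the main fit, sec22a and ergic2 passed the filter on low counts only through the iridophore libraries.

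**Figure D5:**
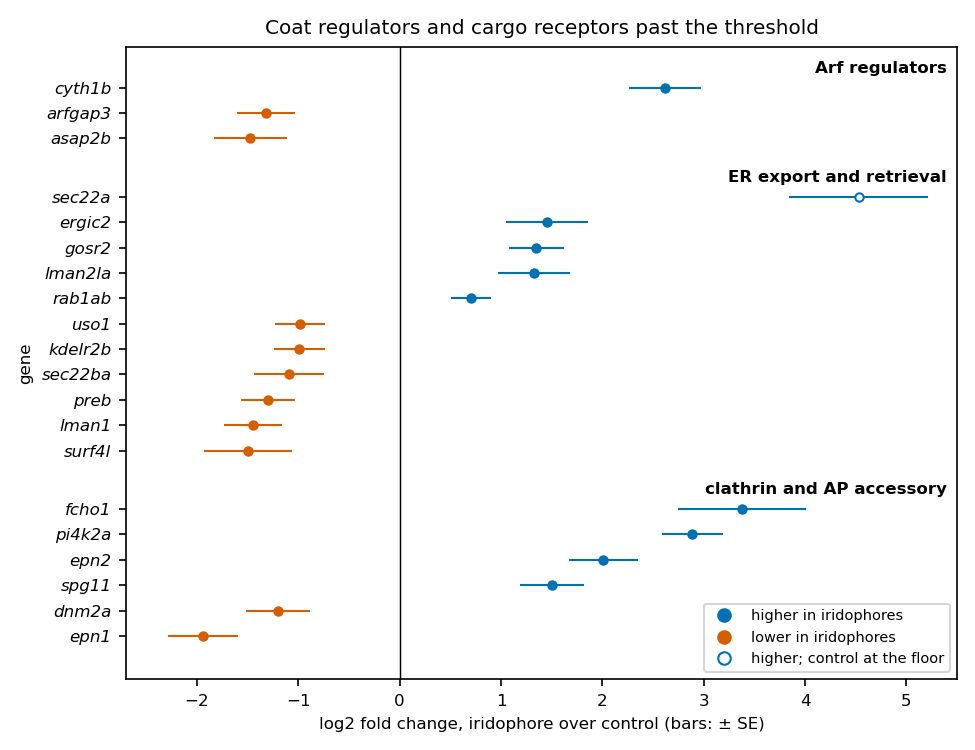
Log2 fold change (iridophore over control) with its standard error for the 20 coat regulators and cargo receptors called by edgeR, by list. The open marker is sec22a, whose control libraries were at or under 3 counts, so that its fitted value depends on the prior count; pi4k2a lies at 2.89 and epn1 at -1.94.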

How the data were processed

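Values are the authors' deposited raw counts per gene symbol for 6 libraries. Per the submitters' processing notes, cutadapt, STAR 2.5.2b, HTSeq, DESeq2 1.36.1 and the danRer11 build are named; the annotation, strand setting, use of molecular identifiers and row filter are not given in the sources used here. The highest count of every row was at least 6. Each column was matched to its sample by library name, and 0 columns lacked one. Replicates are biological per the labels' protocols.

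Counts were analysed with edgeR 4.0.16 in R 4.3.3: expression filter (minimum count 10, minimum total 15; 6849 of 11016 rows, 98.7% of counts), TMM scaling, quasi-likelihood F test with group as the only term, and Benjamini-Hochberg adjustment over all tested rows at 0.05. SE is the absolute log2 fold change over the square root of F. CPM uses TMM-adjusted library sizes; paralog ratios use log2 CPM with a prior count of 2. The procedure was tested on simulated data.

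Library pairs within a group differed beyond sampling noise (chi-square over its degrees of freedom 3.14 to 23.1). Members, lists and rules were chosen with earlier results of these data known. Library values are given for called members with an absolute log2 fold change of 1 or more, the extreme members of each complex, and their paralogs; other members were added to account for every row. Of the regulators, the 12 with the largest called changes of at least 1 are named, and preb, lman2la and arfgap3 were added after their values were seen. Symbols of 57 of the 61 members matched RefSeq (GRCz12tu, used for names and neighbours only). Alternatives were other scalings (DESeq2 size factors, upper quartile), DESeq2 1.42.0, limma-voom 3.58.1, no filter, the replicate number or library-name ending as a term, each library left out, replicates 2 and 3 alone, suffixed rows summed, and prior counts of 0.5 and 5.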

Additional observations from a re-analysis of the deposited data

How the results depend on the processing

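Under the 15 alternatives the number of members called higher stayed at 6 to 8 and the number called lower at 12 to 17, apart from the fits that left out 1 library, in which 4 to 7 were higher and 8 to 16 lower; those with 4 were the fits without control replicate 3 and without iridophore replicate 3, and the cause was not tested. Calls over all genes moved too, with 1248 to 1793 higher and 860 to 1514 lower, against 1513 and 1217 in the main fit. The number of genes tested ranged from 6712 to 11016. Upper-quartile scaling moved the median log2 fold change of all genes to -0.14, against 0.01 with TMM. It called 7 members higher and 16 lower, with 1315 and 1514 of 6849 genes. Deviations from the group mean correlated positively between same-numbered libraries, at 0.315, 0.071 and 0.175 for numbers 1, 2 and 3. Replicate 1 libraries correlated negatively, at -0.241 to -0.152, with libraries of the other group under other numbers. Deviations within a group cancel out, so the positive value of replicate 1 makes its values with replicates 2 and 3 of the other group negative on balance. For the same reason it makes the values among replicates 2 and 3 positive on balance. Neither these positive values nor the negative ones are therefore separate evidence. Iridophore replicate 2 correlated better with control replicate 3 (0.119) than with control replicate 2. Replicate 1 of both groups thus deviated together, whereas numbers 2 and 3 were not told apart as pairs. The main fit, with group as its only term, does not take such a shared deviation into account. With the replicate block, 7 members were higher and 16 lower, with 1584 and 1387 of 6849 genes. With library-name endings as a term the member counts were 7 and 17, with 1674 and 1467 of 6849 genes. With replicates 2 and 3 alone they were 8 and 16, with 1703 and 1468 of 7251 genes. The direction of the complex medians held for AP-1, AP-2, AP-3, COPI and COPII in every fit. That of AP-2 stayed near 0, at -0.28 to -0.05, while its summed level was higher in iridophores. Medians of the Arf and TMED rows crossed 0 (-0.39 to 0.06 and -0.14 to 0.20). The near-zero value of copz1 changed sign with upper-quartile scaling (-0.12), DESeq2 (-0.0694), no filter (-0.0441) and replicates 2 and 3 alone (-0.0313), and spanned -0.17 to 0.13 when 1 library was left out. All 8 non-overlapping paralog ratios kept their sign under other prior counts. They also did so with left-out libraries, but the pairs were chosen as separate between the groups. Leaving out 1 library could not reverse such a difference, so that outcome was fixed by the choice. Depth limits the 14 untested members most, none of which exceeded 20.3 CPM in any library.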
